A study of Mus musculus with 2 samples.

Results

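Lyve1-positive endothelium is here the set of cells of early mouse chimaeras that showed an endothelial transcript profile together with Lyve1, which encodes a hyaluronan receptor of the cell surface. A cell belonged to it with at least 1 spliced UMI (unique molecular identifier, 1 counted transcript molecule) of Cdh5 and at least 8 over Pecam1, Cdh5, Kdr, Esam and Egfl7, all genes of endothelial junctions and growth factor signalling. It also had at least 3 UMIs of Lyve1, fewer than 2 of Etv2 and fewer than 3 of Spi1, and less than 0.5% of its UMIs on the embryonic globins Hba-x, Hbb-bh1 and Hbb-y. The members were thus chosen by their measured counts of Lyve1 and of these other genes, whose levels are given as a description. The limits left 130 of 18233 cells. Of them, 72 were tdTom+ cells of 8981 (0.802%, exact Clopper-Pearson 95% interval 0.628% to 1.01%) and 58 were tdTom- cells of 9252 (0.627%, 0.476% to 0.810%).

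Both kinds of cells came from 1 pool of 6 chimeric embryos. The tdTom+ cells descended from 1 clone of a male, tdTomato-expressing embryonic stem cell (ESC) line, from a cross of a ROSA26tdTomato male with a wild-type C57BL/6 female, in which Cas9 had made a 38 bp frameshift in exon 4 of the X-linked gene Gata1. The clone had been injected into C57BL/6 blastocysts at E3.5, and the tdTom- cells were those of the wild-type host. The age label is E8.5 for the tdTom+ and E8.6 for the tdTom- sample, but the titles of both samples and the study's methods give E8.5 and the fractions came from the same pool, so no difference in age is read from it. Each sorted fraction gave 1 droplet library, so differences between tdTom+ and tdTom- cells have no replicate check, and no test was run on them. The loss of Gata1, the clone and its genetic background cannot be told apart in this design. The intervals given below cover counting error only.

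Lyve1 is best known from lymphatic vessels and from the sinusoids of the liver, where endothelial cells take up macromolecules from the circulation through scavenger receptors. In the early embryo, before either of these exists, it marks vessels of the yolk sac, the site where the first blood cells and then haemogenic endothelium appear. Gata1 encodes a DNA-binding factor on which red blood cells and platelet-forming megakaryocytes depend, lineages that share their origin with yolk sac endothelium.

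The DNA upstream of 4 genes that differed between these cells and the rest of the endothelium is shown here beside the levels that follow, a selection made after their values were seen. Stab2, Mrc1 and Clec14a were higher in Lyve1-positive than in Lyve1-negative endothelium and Gja4 was lower. Each window is the stretch from base 250 to base 101 before the RefSeq start (GRCm38.p6), read 5′ to 3′ on the strand of the gene, and capitals mark GGAA or its reverse complement TTCC, the core of sites bound by ETS factors. The windows lie at chr10:87008043-87008192 for Stab2 (minus strand), chr2:14229164-14229313 for Mrc1 (plus), chr12:58269359-58269508 for Clec14a (minus) and chr4:127314140-127314289 for Gja4 (minus).
Stab2: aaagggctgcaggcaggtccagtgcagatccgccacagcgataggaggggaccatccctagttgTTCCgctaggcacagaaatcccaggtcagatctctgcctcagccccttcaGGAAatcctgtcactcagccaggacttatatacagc
Mrc1: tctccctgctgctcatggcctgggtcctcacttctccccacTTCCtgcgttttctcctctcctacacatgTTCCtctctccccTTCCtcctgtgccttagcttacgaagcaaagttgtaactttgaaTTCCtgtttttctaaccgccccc
Clec14a: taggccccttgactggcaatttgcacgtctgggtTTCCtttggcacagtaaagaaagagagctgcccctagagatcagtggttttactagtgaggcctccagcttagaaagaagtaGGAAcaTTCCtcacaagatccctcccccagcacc
Gja4: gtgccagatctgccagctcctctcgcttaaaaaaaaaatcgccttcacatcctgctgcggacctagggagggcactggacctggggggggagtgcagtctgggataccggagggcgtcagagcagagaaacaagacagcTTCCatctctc

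The ETS core occurred 2 times in the Stab2 window, 4 times in that of Mrc1, 3 times in that of Clec14a and 1 time in that of Gja4. At least 1 such core was found in 81.7% of all 32851 windows of 150 bases. A GATA motif (AGATAA, either strand) and a Maf half-site (TGCTGA, either strand) were in 0 of the 4 windows, beside 6.54% and 9.62% of all windows. Over the genes named by rank in the contrast below, the Maf half-site was in 1 of 8 windows of higher and 2 of 12 windows of lower genes, and the GATA motif in 0 of both. Of 32 genes looked up, 21 had a window.

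The libraries held 167940767 (tdTom+) and 157174026 (tdTom-) spliced UMIs, with medians of 17598 and 15996 per cell. Over all barcodes, Gata1 had 1130 spliced and 1532 unspliced UMIs in the tdTom+ library and 4600 spliced and 413 unspliced UMIs in the tdTom- library, so that its spliced transcripts were lower in the library labelled mutant. The 72 tdTom+ members held 1411466 spliced UMIs (median 17392 per cell, range 7260 to 51747) and the 58 tdTom- members 902502 (median 14232.5, range 5405 to 37286). Scrublet called 10 tdTom+ (13.9%) and 4 tdTom- members (6.90%) doublets, against 4.20% and 5.60% of all barcodes, and these cells were kept. A barcode was shared by both libraries in 18 cases, of which 0 were members.

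Lyve1 (chr7:110850607-110863239, minus strand) was found at both ends of its range in the endothelium. Of the 216 tdTom+ cells that met every other limit, 117 had 0 UMIs of Lyve1, 27 had 1 or 2, and 72 (33.3%, 27.1% to 40.0%) had at least 3. Of the 150 tdTom- cells, 85 had 0, 7 had 1 or 2, and 58 (38.7%, 30.8% to 47.0%) had at least 3. The intervals of these shares overlap. With a lowest count of 5, the shares were 26.9% and 37.3%. Among the members, Lyve1 ran from 3 UMIs over a median of 13.5 to 68 in tdTom+ cells, and from 3 over a median of 23 to 65 in tdTom- cells. As a level, the median member had 721 CPM (UMIs of the gene per 1000000 spliced UMIs of the same cells) in the tdTom+ and 1643 CPM in the tdTom- library. Cells just inside the limit, with 3 or 4 UMIs, numbered 14 in tdTom+ and 2 in tdTom- cells, and cells just outside it, with 2 UMIs, 9 and 3. The tdTom- members thus lay further from the limit than the tdTom+ members did.

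**Figure D1:**
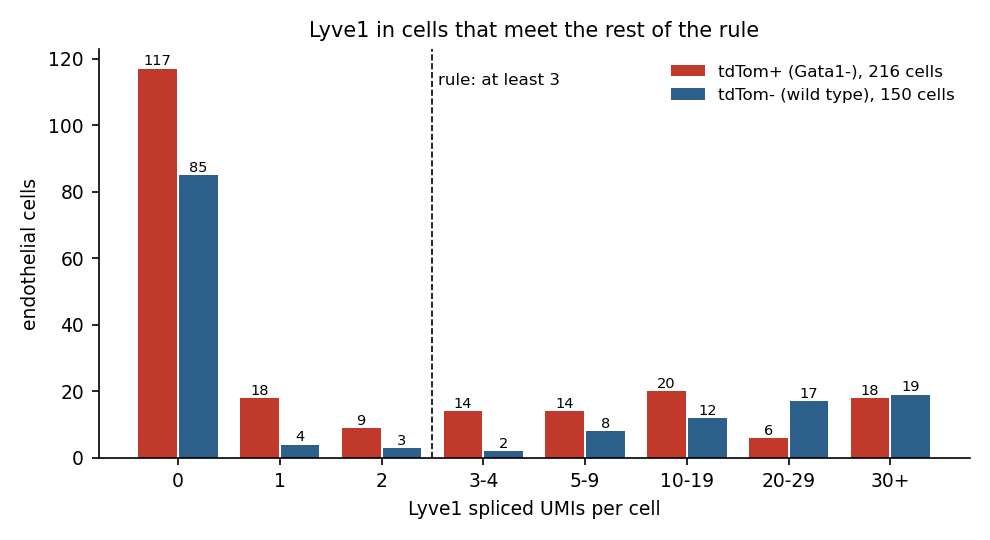
Number of endothelial cells (y axis) by spliced Lyve1 UMIs per cell (x axis, binned) in the tdTom+ (red) and tdTom- (blue) libraries, for cells that met every other limit. Cells with 0 UMIs form the tallest bars (117 and 85), and the dashed line marks the limit of 3 UMIs.

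The marker genes given for these cells were present at high level in both libraries. Selenop (chr15:3268547-3280508), which encodes the secreted carrier of selenium, stood at 567 in tdTom+ and 558 CPM in tdTom- members, against 101 and 132 CPM in Lyve1-negative endothelium, the cells with 0 UMIs of Lyve1 that met the other limits. Gpr182 (chr10:127747276-127751732), an atypical chemokine receptor of sinusoids and lymphatic vessels, had 212 and 316 CPM against 35.5 and 23.3 CPM. Cldn5, a tight junction gene of endothelium in general, had 512 and 494 CPM against 312 and 366 CPM. The summed levels of Selenop and Gpr182 were thus higher in the members, though single Lyve1-negative cells also held these transcripts. After thinning each cell to 5000 UMIs, Selenop was found in 81.9% and 86.2% of members and in 39.5% and 35.7% of Lyve1-negative cells, and Gpr182 in 62.5% and 72.4% against 11.4% and 9.52%. Cldn5 differed less, by a log2 fold of 0.71 in tdTom+ and 0.43 in tdTom- cells. Of the endothelial identity list, 20 genes had enough UMIs for this contrast (at least 100 over the cells compared in each library), of which 1 was at least 2-fold higher (Clec14a) and 1 at least 2-fold lower (Emcn) in both libraries, with median log2 folds of 0.10 and 0.28. Of all genes with enough UMIs, 1.26% were higher and 0.585% lower by the same measure. Tie1, an orphan receptor of the angiopoietin pathway, had 65.9 and 73.1 CPM in members against 59.5 and 55.7 CPM, and Plvap, which forms the diaphragms of fenestrae and caveolae, had 492 and 604 CPM against 446 and 497 CPM.

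Several lymphatic genes were at low level or at 0. Prox1, the transcription factor that sets lymphatic fate, stood at 3.54 in tdTom+ and 6.65 CPM in tdTom- members (5 and 6 UMIs), beside 6.01 and 10.5 CPM in Lyve1-negative endothelium. Pdpn had 1 and 0 UMIs, and the chemokine gene Ccl21a had 0 in both. Of the 11 genes of the lymphatic list, Flt4 and Nrp2 alone had enough UMIs to be compared between Lyve1-positive and Lyve1-negative endothelium, and neither was 2-fold apart in a library. Flt4, the receptor of VEGF-C, had 66.6 and 58.7 CPM in members against 78.1 and 81.3 CPM, and Nrp2, its co-receptor, had 69.4 and 69.8 CPM against 55.2 and 48.9 CPM.

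The genes that accompanied Lyve1 were then listed within each library. This contrast is the one the rule itself drew, so its folds are a description. Among 3418 genes that reached 100 UMIs over the cells compared in each library, 43 (1.26%) were at least 2-fold higher and 20 (0.585%) at least 2-fold lower in the members in both libraries. The median log2 fold of all these genes was -0.0055 in tdTom+ and -0.0029 in tdTom- cells. The shares of genes called would give about 0 for each list used here, so a count of 0 is not read as a result about a list. The scavenger and sinusoid-type list of 21 genes held 9 genes with enough UMIs, of which 6 were at least 2-fold higher in both libraries and 0 lower, with median log2 folds of 2.28 and 2.08. These 6 were Selenop, Gpr182, Mrc1, Oit3, Maf and Dab2. The list was drawn up with earlier results of these data known.

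Mrc1 (chr2:14229392-14332057), the macrophage mannose receptor that liver sinusoids also use for uptake, had 123 CPM in tdTom+ members against 11.5 CPM in Lyve1-negative cells, and 151 against 10.5 CPM in the tdTom- library. Its log2 folds were 3.42 (95% interval 2.76 to 4.15) and 3.84 (3.04 to 4.75). Stab2 (chr10:86841198-87008025), a scavenger receptor for hyaluronan of sinusoidal endothelium, had 97 and 110 UMIs in members (68.7 and 122 CPM) and 0 UMIs in both sets of Lyve1-negative cells. With a floor of 3 counts over the Lyve1-negative group, it was at least 41.9-fold higher in tdTom+ and at least 54.0-fold higher in tdTom- members. The 27 tdTom+ cells with 1 or 2 UMIs of Lyve1 had 3 UMIs of Stab2 (5.79 CPM), and the 7 such tdTom- cells had 0. Stab2 had too few UMIs in the tdTom+ library to enter the counts above.

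Maf (chr8:115682942-115707794), a transcription factor of sinusoids and macrophages, had 120 against 24.6 CPM in tdTom+ and 185 against 10.5 CPM in tdTom- cells, log2 folds of 2.28 (1.80 to 2.79) and 4.13 (3.35 to 5.04). Oit3, a gene of liver sinusoids, had 126 against 13.7 and 107 against 12 CPM. Dab2, a clathrin adaptor for endocytosis, was nearer to 2-fold, with 68.0 against 30.6 and 85.3 against 39.1 CPM. Other genes of the list were higher in the members by less than 2-fold, among them Ctsl, a lysosomal protease, at log2 folds of 0.59 and 0.50, and Tfpi, the inhibitor of tissue factor, at 0.68 and 0.49. Clec1b went the other way, with 86.4 against 97.8 CPM in tdTom+ cells and 56.5 against 120 CPM in tdTom- cells. Of genes of adult liver sinusoids, Fcgr2b and Clec4g had 0 UMIs in the members of both libraries, and Gata4, a regulator of liver sinusoids, had 11 and 1.

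**Figure D2:**
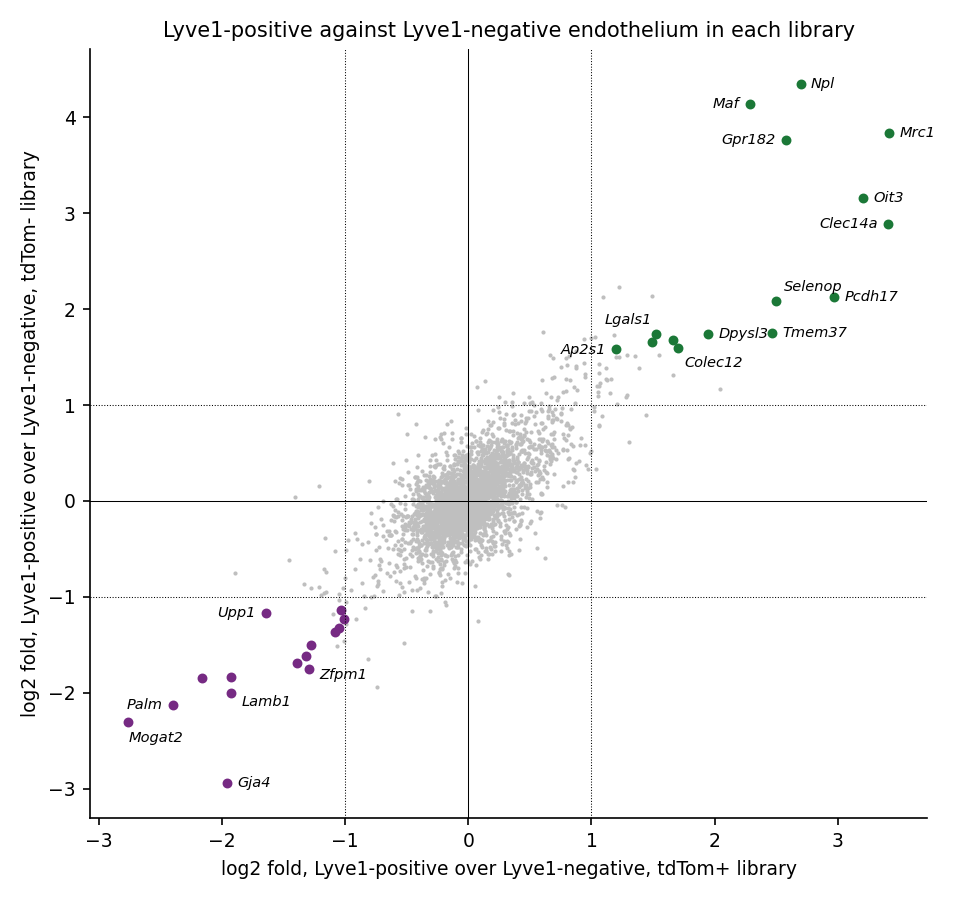
Log2 fold of Lyve1-positive over Lyve1-negative endothelium for each gene with enough UMIs, in the tdTom+ library (x axis) and the tdTom- library (y axis). Green and purple points are the 15 genes per direction named by the rule, most of them with their symbols, and dotted lines mark 2-fold. Mrc1 (3.42, 3.84) and Npl (2.70, 4.34) lie at the upper right and Mogat2 (-2.76, -2.30) at the lower left.

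The 15 genes farthest above equal level in both libraries included the following, named as single genes. Clec14a (chr12:58264720-58269290), an endothelial C-type lectin, had 92.8 against 8.74 CPM in tdTom+ and 167 against 22.6 CPM in tdTom- cells. Npl, an enzyme that degrades sialic acid, had 117 against 18 and 137 against 6.77 CPM, and Colec12, a scavenger receptor with a lectin domain, 183 against 56.3 and 245 against 81.3 CPM. The protocadherin gene Pcdh17 had log2 folds of 2.97 and 2.13. Lgals1, which encodes galectin-1, stood at 1216 against 422 CPM and 1455 against 436 CPM, and Ap2s1, a subunit of the clathrin adaptor complex, at 811 against 352 and 946 against 317 CPM. The rest were Dpysl3, Tmem37, Palld and Rbfa, with log2 folds between 1.49 and 2.47. In neither library did 1 cell hold more than 14.1% of the members' UMIs of any of these 10 genes.

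Of secreted growth factors, Igf1 had 247 against 108 CPM in tdTom+ and 301 against 107 CPM in tdTom- cells, log2 folds of 1.20 (0.94 to 1.46) and 1.5 (1.20 to 1.80). Bmp4, a morphogen of the extraembryonic mesoderm, had 42.5 against 15.8 and 42.1 against 15.8 CPM, with too few UMIs to enter the counts. Of the 18 genes of the BMP and TGF-beta list, 6 had enough UMIs and 0 were 2-fold apart in both libraries. Of the 14 genes of the VEGF and angiopoietin list, 7 had enough UMIs and 0 were 2-fold apart in both, with median log2 folds of 0.17 and 0.33. Over all genes, 1.26% were higher and 0.585% lower, which would also give about 0 for lists of this size. Flt1, a VEGF receptor, had log2 folds of 0.21 (-0.04 to 0.46) and 0.33 (0.03 to 0.63). Tek, the angiopoietin receptor, had 0.51 (0.17 to 0.85) and 0.94 (0.55 to 1.33), and the ligand gene Apln 1.39 (0.92 to 1.87) and 0.95 (0.29 to 1.63).

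Some genes of arterial endothelium were lower in the members and others were not. Gja4 (chr4:127311421-127314039), which encodes the gap junction protein connexin 37, had 20.5 against 79.8 CPM in tdTom+ and 19.9 against 153 CPM in tdTom- cells, log2 folds of -1.96 (-2.58 to -1.37) and -2.94 (-3.72 to -2.24). Hey1, a target of Notch, had 14.9 against 74.8 and 7.76 against 54.2 CPM, with too few UMIs for the counts. Unc5b, a netrin receptor of arteries, had 4.25 against 20.8 and 7.76 against 23.3 CPM. Dll4, a Notch ligand, had 53.8 against 35.0 and 51.0 against 23.3 CPM, and Notch1 had log2 folds of 0.01 and -0.14. Of the 18 arterial genes, 5 had enough UMIs, of which Gja4 was at least 2-fold lower in both libraries and 0 were higher. The list's median log2 folds were -0.46 and -0.14. Emcn, the sialomucin of venous and capillary endothelium, was lower as well, with 54.6 against 110 and 73.1 against 201 CPM. Nr2f2, the transcription factor of venous fate, had 8.5 against 40.4 and 19.9 against 30.9 CPM, with too few UMIs for the counts. Of the 8 genes of the venous list, 3 had enough UMIs, of which Dab2 was at least 2-fold higher in both libraries and 0 were lower, with median log2 folds of 0.33 and 0.51.

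The lower genes also included enzymes of sugar metabolism and genes known to respond to hypoxia. Tpi1 and Pfkl, both enzymes of glycolysis, had log2 folds of -1.05 and -1.32 and of -1.01 and -1.23. Slc16a3, a lactate exporter, had 148 against 358 CPM in tdTom+ and 143 against 403 CPM in tdTom- cells. Bnip3, a mitochondrial protein of mitophagy, had 22.0 against 83.6 and 17.7 against 63.2 CPM. No list of glycolytic or hypoxic genes was set, so these are named as single genes. Mogat2, which acylates monoacylglycerol, had 15.6 against 105 and 27.7 against 136 CPM. Lamb1, a laminin chain of the basement membrane, had 21.3 against 80.8 and 21.1 against 84.3 CPM. Mdk, a heparin-binding growth factor, had 523 against 1067 and 493 against 1087 CPM. The remaining genes by the rule were Palm, Fxyd6, Gadd45g, Dusp2, H19, Zfpm1 and Upp1, with log2 folds from -1.08 to -2.40.

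Genes of the haemogenic and progenitor list differed in level and in direction. Itga2b, the integrin CD41 of early blood progenitors and megakaryocytes, had 55.3 against 17.5 CPM in tdTom+ and 84.2 against 33.9 CPM in tdTom- cells. Runx1, the transcription factor needed for the endothelial to haematopoietic transition, had 24 and 12 UMIs in members (17 and 13.3 CPM), against 2.73 and 0 CPM in Lyve1-negative endothelium. Kit, the stem cell factor receptor, was lower, with 31.9 against 75.4 and 16.6 against 42.9 CPM. Zfpm1, the cofactor FOG1 of GATA factors, had 32.6 against 79.8 and 19.9 against 67.0 CPM. Runx1 UMIs lay in 12 of 72 tdTom+ and 5 of 58 tdTom- members. Of these cells, 9 and 4 also had Itga2b, which was found in 46 and 40 of all members, so that no overlap beyond its general share is read from them. Of the 21 genes of the haemogenic and progenitor list, 6 had enough UMIs, of which Itga2b was 2-fold higher and Zfpm1 2-fold lower in both libraries.

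Shares of cells were compared after each cell had been thinned to 5000 spliced UMIs, beside those of neural cells (median depths of 19067 and 17307.5 before thinning, against 17392 and 14232.5 in members). Neural cells show free RNA of the droplets together with any transcripts of their own, and these were not told apart. Too shallow for this were 0 members, 3 and 1 Lyve1-negative cells and 0 and 6 neural cells. Stab2 was found in 20 of 72 tdTom+ (27.8%, 17.9% to 39.6%) and 22 of 58 tdTom- members (37.9%, 25.5% to 51.6%), against 0.0858% of 1166 tdTom+ and 0 of 1872 tdTom- neural cells. It was in 0 of 114 and 0 of 84 Lyve1-negative cells, where a floor of 3 counts is a share of cells with a UMI of 2.63% and 3.57% (exact upper limits 3.18% and 4.30%). Runx1 was in 5.56% (1.53% to 13.6%) and 1.72% of members against 1.89% and 0.641% of neural cells, so its share was not separable from that of neural cells at this depth in either library. Kit was in 16.7% of tdTom+ members (8.92% to 27.3%) and 0 of 58 tdTom- members (a floor of 3 counts is 5.17%, exact upper limit 6.16%), against 7.38% and 5.82% of neural cells. The tdTom- share was thus not above that of tdTom- neural cells. The interval of the tdTom+ share meets that of tdTom+ neural cells (5.94% to 9.03%) only at its lower end, and the difference was not tested. It does not overlap the interval of tdTom- members (0% to 6.16%). Before thinning, the shares of members were 48.6% and 62.1% for Stab2, 16.7% and 8.62% for Runx1, and 43.1% and 22.4% for Kit. Those of neural cells were 0.343% and 0.106%, 6.09% and 2.93%, and 22.2% and 19.6% in the same order, each below that of members. No intervals were set for the shares before thinning.

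**Figure D3:**
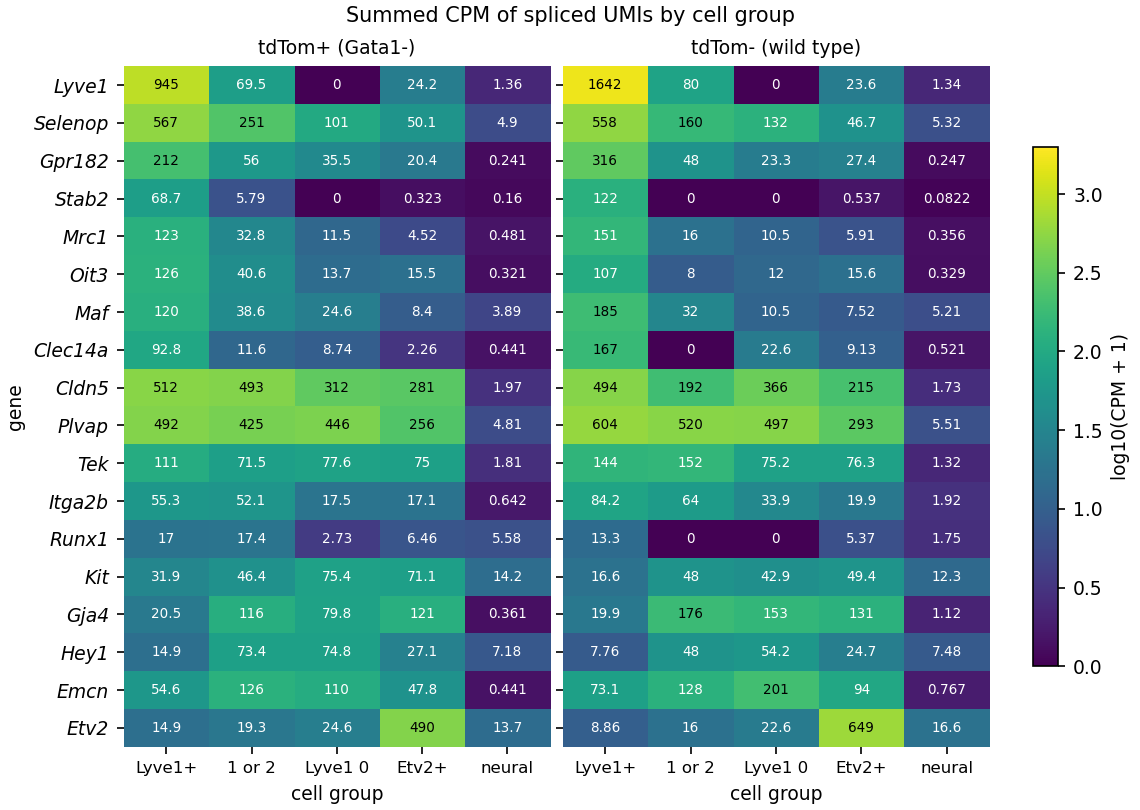
Level of 18 genes (rows) in 5 cell groups (columns) of the tdTom+ (left) and tdTom- (right) library, in CPM of spliced UMIs printed in each field and as a colour of log10(CPM + 1), to be read across groups within a row. Lyve1+ are the members, 1 or 2 and Lyve1 0 are endothelial cells with that many Lyve1 UMIs, Etv2+ are endothelial cells with at least 2 Etv2 UMIs, and neural are cells with neural markers. Stab2 is at 68.7 and 122 CPM in members and at 0 CPM in cells without Lyve1.

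Top2a, the topoisomerase of dividing cells, was found in 81.9% of tdTom+ and 86.2% of tdTom- members after thinning, against 81.6% and 79.8% of Lyve1-negative cells. Of the 21 cell cycle genes, 20 had enough UMIs and 0 were 2-fold apart in both libraries, beside 1.26% higher and 0.585% lower of all genes, which would also give about 0 for a list of this size. The list's median log2 folds were 0.05 and 0.06. Of the 20 genes of the selenoprotein and antioxidant list, 16 had enough UMIs, and Selenop alone was 2-fold higher in both. Gpx1, a selenium-dependent peroxidase, had log2 folds of 0.39 and 0.55, and Txnrd1 0.07 and -0.40.

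Markers of other cell types were at the following levels. Of the myeloid list of 10 genes, the members' summed level was 60.9 (tdTom+) and 53.2 CPM (tdTom-), against 44.8 and 33.9 CPM in Lyve1-negative endothelium. Csf1r, the receptor that macrophages depend on, had 1 and 0 UMIs, and Cx3cr1 and Cd52 had 0 in both. Others of the list were above 0. Laptm5 had 14.9 and 19.9 CPM, beside 16.4 and 12.8 CPM in Lyve1-negative endothelium and 2.45 and 0.33 CPM in neural cells. Fcer1g had 20.5 and 11.1 CPM, beside 8.19 and 3.01 CPM and 5.90 and 0.36 CPM, and Coro1a and Fcgr3 had between 7.79 and 9.97 CPM in members. The 8 megakaryocyte genes summed to 107 and 152 CPM against 47.5 and 51.9 CPM. Itga2b made up most of this, Pf4 had 15.6 and 26.6 CPM, and Gp9 and Gp5 had 0 UMIs. The 12 genes of yolk sac endoderm summed to 9.92 and 11.1 CPM, and 10 neural genes to 49.6 and 66.5 CPM, against 672 and 826 CPM in neural cells. The neural profile that defined the latter was also shown by 2 tdTom+ and 2 tdTom- members, which were kept.

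Cardiac genes differed between the libraries. The 9 genes summed to 185 CPM in tdTom+ and 66.5 CPM in tdTom- members, and to 1006 and 88.8 CPM in Lyve1-negative endothelium. A cardiac profile (at least 8 UMIs over at least 3 of these genes) was shown by 2 tdTom+ and 0 tdTom- members and by 8 and 1 Lyve1-negative cells, and 1 member held 84.2% of the Tnnt2 UMIs of the tdTom+ members. Without cells of cardiac or neural profile, an alternative chosen after seeing the data, the log2 fold of Myl7, an atrial myosin light chain, between tdTom+ and tdTom- members went from 1.04 to -0.18.

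How other genes followed Lyve1 among the members was then described by dividing the cells of each library into 4 groups by their level of Lyve1. Each group held 18 tdTom+ cells or 14 to 15 tdTom- cells. Stab2 went from 29.9 over 43.3 and 84.4 to 129.5 CPM from the lowest to the highest group of tdTom+ cells, and from 29.6 over 106.3 and 195.8 to 191.5 CPM in tdTom- cells. Gpr182 went from 132 over 179 and 222 to 340 CPM in tdTom+ and from 163 over 298 and 467 to 383 CPM in tdTom- cells. Both genes were higher in the upper groups of each library, and in tdTom- cells the third group was highest. Clec14a was highest in the fourth group of both libraries, from 34.9 over 75.1 and 92.9 to 188 CPM and from 40.7 over 131.8 and 262 to 290 CPM. Selenop ran from 474 to 728 CPM in tdTom+ cells and from 218 to 755 CPM in tdTom- cells. Cldn5 had no such order in tdTom+ cells, at 511, 425, 504 and 618 CPM, and in tdTom- cells was at 263 CPM in the lowest group and between 538 and 638 CPM in the others.

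Gja4 and Mdk were highest in the lowest group of both libraries. Gja4 had 39.9 CPM in the lowest group of tdTom+ and 40.7 CPM in that of tdTom- cells, and between 4.25 and 23.2 CPM in the 6 other groups. Of the Gja4 UMIs of all members, 1 cell held 10 of 29 in the tdTom+ and 5 of 18 in the tdTom- library. The 2 tdTom- members with 3 or 4 UMIs of Lyve1 held 8. The order of Gja4 can thus rest on single cells. Mdk went from 781 to 301 CPM in tdTom+ cells and from 711 to 470 CPM in tdTom- cells. Other arterial and growth factor genes did not share this order. Notch1 had 57.4, 86.6, 109.8 and 116.5 CPM from the lowest to the highest group of tdTom+ cells and 74.0, 97.8, 93.4 and 92.9 CPM in tdTom- cells, and Igf1 was lowest in the lowest group of both libraries, at 149.7 and 244 CPM. Runx1 followed no order, with 4.99, 11.5, 42.2 and 9.71 CPM in tdTom+ and 22.2, 12.7, 4.45 and 11.6 CPM in tdTom- cells. The median depth of the 4 tdTom- groups fell from 17362 to 12417 UMIs with rising Lyve1, and was between 16314.5 and 17668 in the tdTom+ groups. Its part in these values was not tested.

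**Figure D4:**
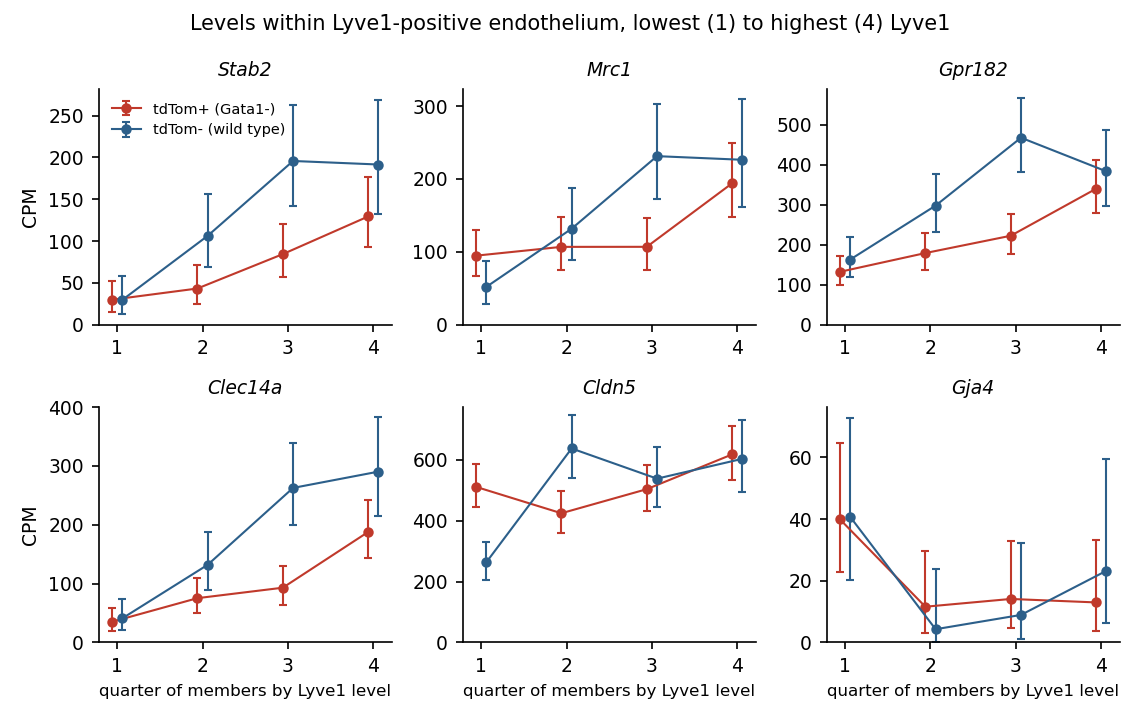
Level in CPM (y axis, a scale of its own for each gene) of 6 genes in 4 groups of members from the lowest (1) to the highest (4) Lyve1 level (x axis), for tdTom+ (red) and tdTom- (blue) cells. Bars are exact Poisson 95% intervals. Stab2, Mrc1, Gpr182 and Clec14a are lowest in the lowest group of each library, and Gja4 is highest there at 39.9 and 40.7 CPM. Of the Gja4 UMIs of all members, 1 cell held 34.5% in the tdTom+ and 27.8% in the tdTom- library, so its order can rest on single cells.

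The tdTom+ and tdTom- members were then compared with each other. The rule set no contrast between them, but the genes it limited (Lyve1, Etv2, Spi1, the globins and the 5 endothelial genes) are a description here too, and members near the Lyve1 limit were mostly tdTom+ (14 against 2 with 3 or 4 UMIs). The Spi1 limit fell unevenly on the libraries. It kept 218 of 273 tdTom+ and 155 of 165 tdTom- cells at its step, and it alone left out 8 and 3 cells that met the rest of the rule. At least 100 UMIs over the members were reached by 3518 genes, with a median log2 fold of -0.02. Of these, 9 (0.256%) were at least 2-fold higher and 21 (0.597%) at least 2-fold lower in tdTom+ cells. Genes of the rule were not left out of these counts, so the 21 include Hba-x and Hbb-y, which it limited. Of these 30 genes, 14 were also at least 2-fold apart the same way in cells outside the blood and vessel lineages. The share of all 3518 genes 2-fold apart in those cells is not given here, so no excess is read from the 14. They include Hba-x, Hbb-y and Phlda2, and among them were imprinted genes and a gene of X inactivation. With a lowest Lyve1 count of 5 in place of 3, 3 genes were higher and 22 lower. Mest stood at 4425 in tdTom+ and 2033 CPM in tdTom- members (log2 fold 1.12, 1.05 to 1.20), with a log2 fold of 1.06 in the other cells. Cdkn1c, an inhibitor of cyclin-dependent kinases, had 1.42 and 185 CPM (-7.03 in members, -6.10 in other cells), and Grb10, an adaptor of growth factor receptors, had 3.54 and 143 CPM (-5.33 and -5.55). Xist, the RNA that silences an X chromosome, had 7.79 and 243 CPM (-4.96 and -6.23), and 10 of its 11 UMIs in tdTom+ members lay in 1 cell.

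Impact, Peg10 and Erdr1 were higher in tdTom+ members by log2 folds of 1.26, 1.05 and 1.25, beside 1.5, 1.35 and 1.48 in the other cells. H13, Anxa5 and Ndufb5 were lower by log2 folds of -1.38, -1.15 and -1.07, beside -1.54, -1.09 and -1.04. The folds of these genes in Lyve1-positive endothelium lay near those in other cells of the same libraries. Peg3, an imprinted zinc finger gene, was different, with 1017 and 627 CPM, a log2 fold of 0.70 (0.56 to 0.84) beside 1.24 in the other cells. Of the 22 genes of the imprinted and growth list, 13 had enough UMIs, of which 3 were 2-fold higher and 3 lower. Igf2, a fetal growth factor, had 229 and 440 CPM, a log2 fold of -0.94 (-1.16 to -0.73). Phlda2 had 2.13 and 283 CPM, but 1 cell held 93.3% of its UMIs in the tdTom- members. Globin RNA was also lower in tdTom+ members, with 36.1 and 378 CPM of Hba-x and 15.6 and 105 CPM of Hbb-y. Their log2 folds of -3.39 and -2.76 lay beside -2.74 and -2.72 in the cells outside the blood and vessel lineages. Hbb-bh1 had 137 and 230 CPM, a log2 fold of -0.75 beside -0.85, and 1 cell held 75 of its 193 UMIs in the tdTom+ members. The rule limited the globins.

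Other genes differed between the members and not to that extent in the other cells. Sox4, a transcription factor of progenitor cells, stood at 159 in tdTom+ and 78.7 CPM in tdTom- members, a log2 fold of 1.01 (0.62 to 1.42) beside -0.12 in the other cells and -0.18 in Lyve1-negative endothelium. Lmo2, a bridging factor of blood and endothelial transcription complexes, had 203 and 114 CPM, a log2 fold of 0.83 (0.50 to 1.17) beside 0.32 and 0.22. Cenpn, a centromere protein, had 57.4 and 25.5 CPM, a log2 fold of 1.17 (0.49 to 1.91) beside 0.02 and -0.14. Smaller differences of this kind were those of Ccnd1, encoding cyclin D1, at a log2 fold of 0.59, of Gsta4, a glutathione transferase, at 0.53, and of Apln, the apelin ligand, at 0.70. With the interval that counting allows, the log2 fold of Sox4 was 1.12 (0.74 to 1.51) above that in the other cells and that of Ccnd1 0.70 (0.48 to 0.91). In Lyve1-negative endothelium, Sox4 stood at 265 and 301 CPM and Lmo2 at 215 and 185 CPM, above the members of both libraries. Members near the Lyve1 limit were mostly tdTom+. The part of this in the folds of Sox4 and Lmo2 was not tested. Lower in tdTom+ members were the transcript AY036118, with 65.2 and 174 CPM, a log2 fold of -1.42 (-1.80 to -1.04) beside -0.32 in the other cells and 0.06 in Lyve1-negative endothelium, and Pcdh7, a protocadherin, with 33.3 and 63.2 CPM, -0.92 (-1.51 to -0.34) beside 0.33 and 0.31. Krt8, a keratin of simple epithelia, had 42.5 and 105 CPM, but 1 cell held 60.0% of its UMIs in the tdTom- members, and without the cells that Scrublet called its log2 fold went from -1.31 to 0.13. Of the other genes by this rule, Tal1, Lyl1, Mfng and Fam171a2 had log2 folds between -0.42 and 0.48 in the members, each with an interval that holds 0, and differed from the other cells by the fold in those cells, where their levels were at most 18 CPM.

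**Figure D5:**
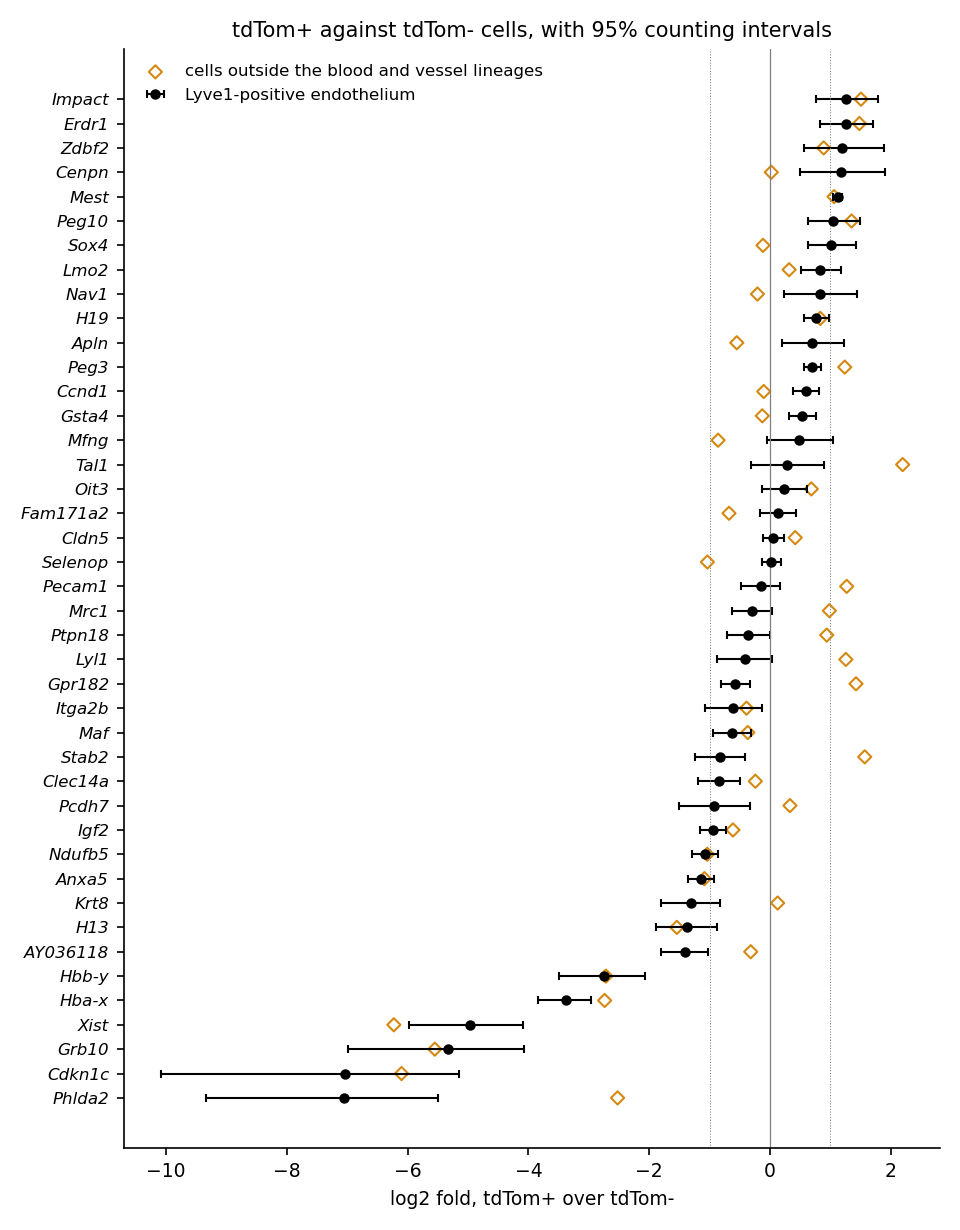
Log2 fold of tdTom+ over tdTom- cells (x axis) for named genes (rows) in Lyve1-positive endothelium (black, with exact 95% counting intervals) and in cells outside the blood and vessel lineages (open orange diamonds). Mest (1.12 and 1.06) and Grb10 (-5.33 and -5.55) lie close together in both, and Sox4 (1.01 and -0.12) does not.

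The genes that mark Lyve1-positive endothelium were partly lower in tdTom+ members. Stab2 stood at 68.7 in tdTom+ and 122 CPM in tdTom- members, a log2 fold of -0.83 (-1.24 to -0.42), and Gpr182 had 212 and 316 CPM, -0.58 (-0.81 to -0.34). Clec14a had 92.8 and 167 CPM, -0.85 (-1.20 to -0.50), and Maf 120 and 185 CPM, -0.63 (-0.95 to -0.31). Others lay near equal level, with log2 folds of 0.02 for Selenop, 0.05 for Cldn5, 0.23 for Oit3 and -0.30 for Mrc1. Of the 21 scavenger and sinusoid-type genes, 11 had enough UMIs, 0 were 2-fold apart, and the median log2 fold was -0.03. The summed Lyve1 level itself was 945 and 1642 CPM, which moves with these values, and its part in them was not tested. Where cells with at least 10 UMIs of Lyve1 were taken, an alternative chosen after seeing the data, the log2 folds were -0.60 for Stab2, -0.50 for Gpr182, -0.58 for Clec14a and -0.58 for Maf. The 4 groups by Lyve1 were formed within each library and are not matched for Lyve1 between them, at 199.6 and 551 CPM of Lyve1 in the lowest and 2249 and 3175 CPM in the highest group.

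In the lists of endothelial and blood genes, 0 genes with enough UMIs were 2-fold apart between the fractions, a count that shares of 0.256% and 0.597% over all genes would also give for lists of this size. Of the endothelial identity list of 28 genes, 21 had enough UMIs and the median log2 fold was -0.17, with a range from -0.85 for Clec14a to 0.83 for Lmo2. Of the haemogenic list of 21 genes, 5 had enough UMIs and the median was -0.42, which went to 0.51 when cells were thinned to 5000 UMIs. Itga2b had 55.3 and 84.2 CPM, a log2 fold of -0.61 (-1.08 to -0.13), and Lyl1, a relative of Tal1, had 63.8 and 85.3 CPM, with an interval of -0.88 to 0.04 that holds 0. Among genes with fewer UMIs, Kit had 45 and 15 UMIs (31.9 and 16.6 CPM), a log2 fold of 0.94 (0.07 to 1.89), and Mycn 49 and 11 UMIs, 1.51 (0.55 to 2.60). After thinning, Kit was in 16.7% (8.92% to 27.3%) of tdTom+ and 0 of 58 tdTom- members (exact upper limit 6.16%), intervals that do not overlap. Among neural cells the shares were 7.38% (5.94% to 9.03%) and 5.82% (4.81% to 6.98%). Each of these overlaps the interval of the members of its library. Before thinning the Kit shares of members were 43.1% and 22.4%, beside 22.2% and 19.6% of neural cells. Of the BMP and TGF-beta list, Acvrl1, a receptor of BMP9, had 46.8 and 84.2 CPM, a log2 fold of -0.85 (-1.35 to -0.35). Of the cell cycle list, 19 genes had enough UMIs, 0 were 2-fold apart and the median was -0.03. Subtracting neural levels gave 1.14. The list summed to 5788 and 5814 CPM in neural cells, against 4836 and 4670 CPM in members. Levels below the neural one were set to 0 by the subtraction, so 1.14 is not read as a difference.

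Gata1 (chrX:7959260-7978071, minus strand) itself was close to absent from the members of both libraries. It had 2 spliced and 1 unspliced UMIs over the 72 tdTom+ members and 3 spliced and 0 unspliced UMIs over the 58 tdTom- members. As levels these were 1.42 and 3.32 CPM, a log2 fold of -1.23 with an interval from -4.81 to 1.90, so a difference was not detectable at this depth. Spi1 was limited by the rule to fewer than 3 UMIs, and 23 tdTom+ and 12 tdTom- members had 1 or 2.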

How the data were processed

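Single cells of both sorted fractions were profiled with 10x Genomics version 3 chemistry. Per the labels and the study's methods, the authors mapped reads to mm10 with Cell Ranger 3.0.2, called cells with emptyDrops, filtered them by total RNA and mitochondrial share, and separated spliced and unspliced molecules with velocyto. They deposited whole-number UMI counts per gene and cell for both layers, and quality metrics that include the percent of mitochondrial UMIs. Of the cells in the deposited metrics, 6 were not in the count tables. The authors' cell types and doublet calls were not used here.

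Members and gene lists were chosen with earlier results of these data known. The UMIs of a gene in all cells of a group were added up and divided by the group's spliced UMIs (CPM). Log2 folds have exact conditional and CPM exact Poisson 95% intervals, and shares exact Clopper-Pearson intervals. The difference between a log2 fold and that in other cells has an approximate normal 95% interval, with a small constant added to each count. Cells of 1 library are not replicates, so no test was run. A gene was counted with at least 100 UMIs over the cells compared (in each library for the Lyve1 contrast) and called at 2-fold. Neural cells had at least 8 UMIs over at least 3 of 10 neural genes, and cells outside the blood and vessel lineages had at most 2 UMIs over the endothelial genes and no blood profile. Genes were named where they belonged to the rule or a list, or were among the 10 per direction (15 for the Lyve1 contrast) whose interval lay farthest from 0, between the fractions or against the cells outside the blood and vessel lineages. Some genes are not reported here. Doublets were marked with Scrublet through scanpy 1.11.5 in Python 3.11.15, with numpy 2.4.6, scipy 1.17.1 and pandas 2.3.3. Intervals were tested on simulated counts with the counting error they assume and no spread between cells, so the test does not cover such spread. Positions are from the GENCODE annotation of GRCm38, and upstream sequence from RefSeq. Alternatives changed the lowest Lyve1 count, the gene minimum, doublets, thinning, layers, scaling, subtraction of neural levels and averaging per cell.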

Additional observations from a re-analysis of the deposited data

How the results depend on the processing

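Of 180 counts, list medians and shares under the alternatives, 150 stayed within a set limit. The limit was 1.5 times for counts and the exact interval for shares. For list medians it was the median distance from the middle to the end of the intervals of the list's single genes. This is a wide limit for a median, which has no interval of its own here. The counts of genes at least 2-fold apart depended most on the number of UMIs asked of a gene. Between the fractions, 9 higher and 21 lower genes became 86 and 106 at a minimum of 30 UMIs, 2032 and 1770 at 1 UMI, and 1 and 4 at 300 UMIs. Between Lyve1-positive and Lyve1-negative endothelium, 43 higher and 20 lower genes became 98 and 70, 520 and 808, and 13 and 7. Thinning to 5000 UMIs left 1 higher and 4 lower genes between the fractions and 12 and 6 in the contrast, with fewer genes past the minimum. Subtracting neural levels gave 303 and 411, and 307 and 186, since genes near that level approach 0. Spliced and unspliced UMIs together gave 33 lower genes in the contrast. A lowest Lyve1 count of 5 gave 3 higher genes between the fractions, as did one of 10, which was chosen after seeing the data. The median log2 fold of the haemogenic list was -0.42, and 0.51 under thinning. The latter covers fewer genes, those still past the minimum, so it is not read as a change of the list. That of the cell cycle list went from -0.03 to 1.14 with neural levels subtracted, where levels below the neural one became 0. How much this added to the change of the cell cycle list was not tested.

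The Lyve1-positive share of tdTom+ endothelium (33.3%) was 26.9% at a lowest count of 5, 20.4% at 10, and 21.9% when cells were thinned before the rule, and that of tdTom- endothelium (38.7%) was 37.3%, 32.0% and 33.8%. Over all barcodes the shares were 0.802% and 0.627%. The log2 fold of Krt8 went from -1.31 to 0.13 without Scrublet-called cells, and that of Myl7 from 1.04 to -0.068 and -0.29 at lowest counts of 5 and 10 and to -0.18 without cells of neural or cardiac profile, again chosen after seeing the data. Of the log2 folds of single genes, 3502 stayed within their interval and 177 moved beyond it. A further 4, of genes at least 2-fold apart, changed sign. A change of sign in a smaller fold was judged by its interval alone. Folds that an alternative left without a finite value, mostly by subtraction of neural levels, are not in these counts. Thinning left too few UMIs for a median of the venous and arterial lists. No paired analysis was possible because each fraction is 1 library and no result comes from a test. Each fraction has no second library, the 130 members give few UMIs for many transcription factors, and 1 cell can carry a gene's count.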

Other observations

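Of the 12 genes of the mesenchyme and allantois list, Vim alone had enough UMIs to be compared between members and Lyve1-negative endothelium, and 0 were counted as 2-fold apart. Vim, the intermediate filament of mesenchymal and endothelial cells, stood at 3326 in tdTom+ and 3250 CPM in tdTom- members against 2678 and 2578 CPM, and Ahnak, a large scaffold protein of the cell cortex, had 29 and 46.5 CPM against 10.9 and 6.77 CPM. Matrix genes of mesenchyme were at or near 0, with 8 and 0 UMIs of Col1a1 and 3 and 0 UMIs of Col3a1. Foxf1, a transcription factor of extraembryonic and splanchnic mesoderm, had 35.4 and 38.8 CPM against 29.5 and 12.8 CPM.

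Spi1, which encodes PU.1, was limited in all endothelial cells by the rule to fewer than 3 UMIs, with no lower bound. This limit alone left out 8 tdTom+ and 3 tdTom- cells that met the rest of the rule, so the shares that follow leave out the cells highest in Spi1. After thinning to 5000 UMIs it was found in 7 of 72 tdTom+ (9.72%, 4.00% to 19%) and 6 of 58 tdTom- members (10.3%, 3.89% to 21.2%), in 1.75% and 1.19% of Lyve1-negative cells, and in 0.343% and 0.0534% of neural cells.

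Endothelial cells with at least 2 UMIs of Etv2, the factor that starts the endothelial and blood programmes, had 24.2 CPM of Lyve1 in the tdTom+ and 23.6 CPM in the tdTom- library. Their levels of Mrc1 were 4.52 and 5.91 CPM and those of Gja4 121 and 131 CPM.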
